A study of Mus musculus with 12 samples.

Results

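The genes described here form the signalling core that links Toll-like and tumour necrosis factor receptors to NF-kB, to the MAP kinases and to cell death, as measured in mouse blood. They were chosen by gene symbol alone: NF-kB subunits, IkB proteins and their kinases, Toll and IL-1 receptor adaptors, Traf and Card proteins, the MAP kinase tiers, Ripk proteins, apoptotic caspases, inhibitors of apoptosis and the Bcl2 family. The rule found 89 of the 8003 genes of the blood table (1.11%), and the defining genes Rela, Nfkb1 and Casp8 were among them. Blood RNA came from 3 control mice (Ctrl 1, 2 and 3) and 3 treated mice (Akk 1, 2 and 3), all C57BL/6 and labelled as 15 months old, with 1 library per mouse. The control mice are labelled Normal. The treated mice are labelled as given a membrane protein of Akkermansia muciniphila, a mucus-dwelling gut bacterium, with 8 weeks stated in the characteristics and 6 weeks in the protocol, whereas the study's methods describe oral gavage of the bacterium, or of vehicle in the controls, after antibiotics. The methods also say that the RNA came from mice in which A. muciniphila had not successfully colonized the gut. Poly-A RNA of whole blood was sequenced, so cell types were not separated. The groups were compared to ask whether signalling genes of the blood differed between treated and control mice.

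In resting cells NF-kB dimers such as Rela with the Nfkb1 product are held in the cytoplasm by IkB proteins. Receptor signals reach them through adaptors such as Myd88 and Traf6, ubiquitin-binding proteins such as Tab2 and the IkB kinases Chuk and Ikbkb, and the same adaptors feed the 3-tier MAP kinase cascades. Ripk1, Fadd, Cflar and Casp8 form the complex at which a death receptor signal turns towards survival, apoptosis or necroptosis. Leukocytes keep most of these proteins ready and control them largely by phosphorylation, ubiquitin and cleavage, none of which is measured by RNA.

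The values are FPKM, which divide the sequenced fragments of a gene by its transcript length and by the size of the library, so they can be compared between genes as levels per length. Every gene of the table had been selected by the authors as changed between the groups. The sign of a member's difference was therefore partly fixed by its presence in the table, and shared signs among members are given below only as a description. Differences were computed as log2 fold changes, Akk over Ctrl, of log2(FPKM + 0.1) with limma over all 8003 genes. The added 0.1 understates the change of low genes. limma shares variance between genes of a similar level, and with the FPKM as deposited it did so almost fully. The SE, interval and p of a gene in that fit thus rest on the spread over the table, Ctrl 1 included, and not on that gene's own spread. A call required both a 1.5-fold change and an adjusted p no higher than 0.05. No gene of the table passed (percent called 0), and 0 of the 89 members did. The study counts 8003 changed genes in blood and states the same limits, but it does not name its test. The difference between the 2 outcomes was not resolved. The smallest adjusted p was 0.487 (limma, Benjamini-Hochberg), while 276 genes (3.45%) and 2 members (2.25%), Trafd1 and Bcl2a1d, had an unadjusted p under 0.05. For a single gene, an exact two-sided permutation of 3 mice against 3 has 0.1 as its smallest p.

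Ctrl 1 stood apart from the other libraries and is named before the results that rest on it. It held the highest of the 6 values for all 89 members (100%), as it did for 98.2% of the table. The summed FPKM of the members was 413, 107 and 69.6 in the Ctrl libraries in order, against 73.3, 57.3 and 58.1 in Akk 1, 2 and 3. Ctrl 3 thus lay below Akk 1 in this sum, and only the Ctrl 1 and Ctrl 2 sums were above all the Akk sums. The members' share of the summed FPKM of the table was steadier, at 0.583%, 0.547% and 0.644% in the Ctrl libraries and 0.642%, 0.556% and 0.541% in the Akk libraries, and on this measure the groups overlapped. The median member had 4.99 times as much FPKM in Ctrl 1 as in the mean of Ctrl 2 and Ctrl 3, against 5.07 times for the median gene of the table. Among the treated mice, Akk 1 held the highest value for 66 members (74.2%, against 71.6% of the table).

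**Figure D1:**
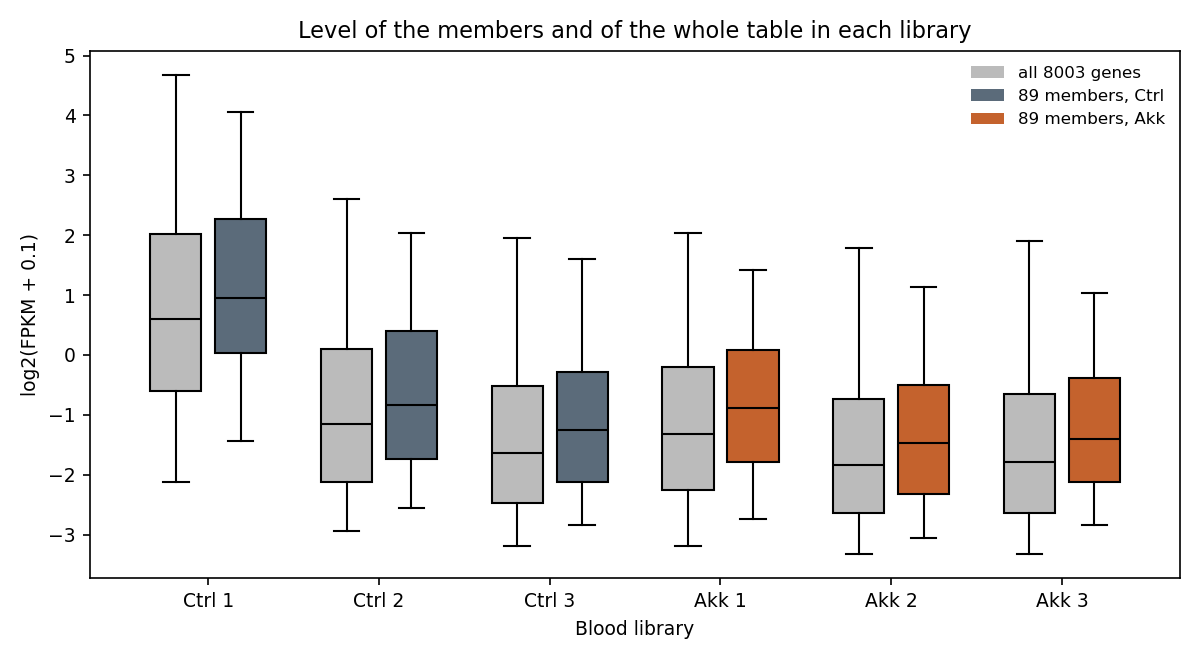
Level of the 89 members and of the whole blood table in each library, as log2(FPKM + 0.1). Boxes span the quartiles with a line at the median and whiskers reach the 5th and 95th percentiles. Grey boxes hold all 8003 genes, slate boxes the members in Ctrl and orange boxes the members in Akk. The members' median FPKM was 1.84, 0.46 and 0.32 in the Ctrl libraries and 0.44, 0.26 and 0.28 in the Akk libraries.

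The median log2 fold change of the 89 members was -0.88, close to the -0.87 of all 8003 genes. All 89 were negative, from -2.19 for Trafd1 to -0.28 for Map3k12, and 14 members (15.7%) had every Akk library below every Ctrl library, against 15.4% of the table. Without Ctrl 1 the median was -0.22 for the members and -0.24 for the table, 73 members (82%, against 81.6%) stayed negative, and the count without overlap was 14 (15.7%, against 15.6%). When each library was centred on its median log2 value over the table, which removes a shift common to all genes, the medians were 0.04 for the members and 0.04 for the table. The table holds only genes selected as changed, 7966 of 8003 with a lower mean in Akk. Centring therefore also removes a group difference that these genes share. A table median near 0 follows from the centring, and the members, whose median was close to the table's, moved with it. Centred values show only how a gene differs from the rest of the table. On this scale 43 members were negative (48.3%, against 45.1% of the table). The Akk libraries all lay below the Ctrl libraries for 7 members (7.87%, against 4.44%) and above them for 3 (3.37%, against 4.01%). In FPKM the members' shares were near those of the table, and on the centred scale the widest gap was that of the 7 members lower in Akk, which was not tested.

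**Figure D2:**
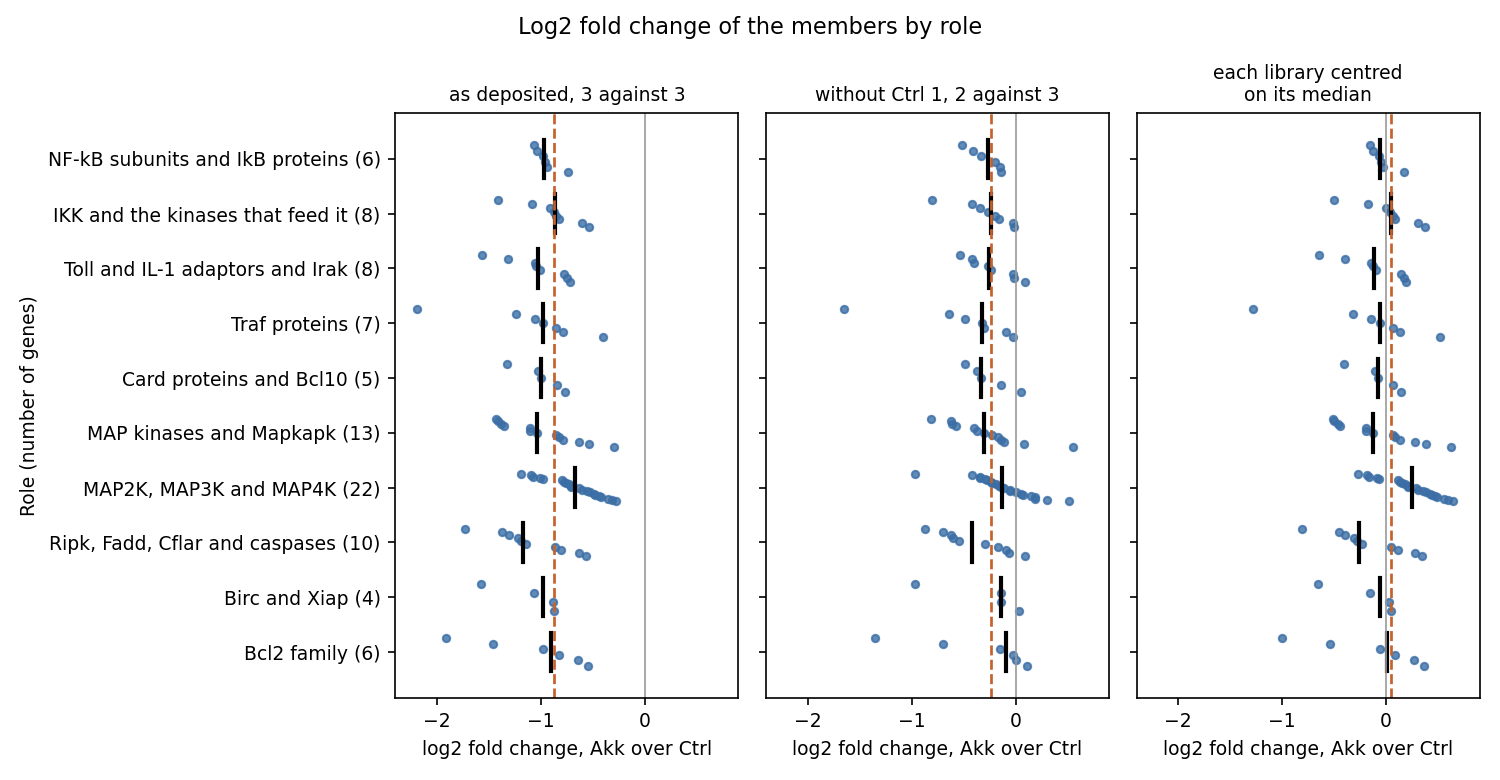
Log2 fold change (Akk over Ctrl) of each member, one point per gene, by role, with the FPKM as deposited, without Ctrl 1, and with each library centred on its median. Black bars mark the median of a role and the dashed line the median of all 8003 genes. The dashed line moved from -0.87 to -0.24 and 0.04 across the panels and the role medians moved with it, while Trafd1 stayed at the far left of the Traf proteins.

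The levels kept much the same order in every library. Map2k3, the kinase that activates p38, was the highest of the 89 members in all 6 libraries, at 41.2, 10.9 and 8.93 FPKM in Ctrl and 6.59, 8.44 and 7.23 FPKM in Akk. Only 7 genes were among the 10 highest members in all 6 libraries: Map2k3, Card19, Mapk3, Mapk6, Mapk14, Tab2 and Trafd1. Most members were low, and 64, 72, 67, 71 and 72 of the 89 were under 1 FPKM in Ctrl 2, Ctrl 3, Akk 1, Akk 2 and Akk 3, against 23 in Ctrl 1. The mean over the 6 libraries was below 1 FPKM for 58 members, so much of what follows rests on low values whose read depth is unknown.

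**Figure D3:**
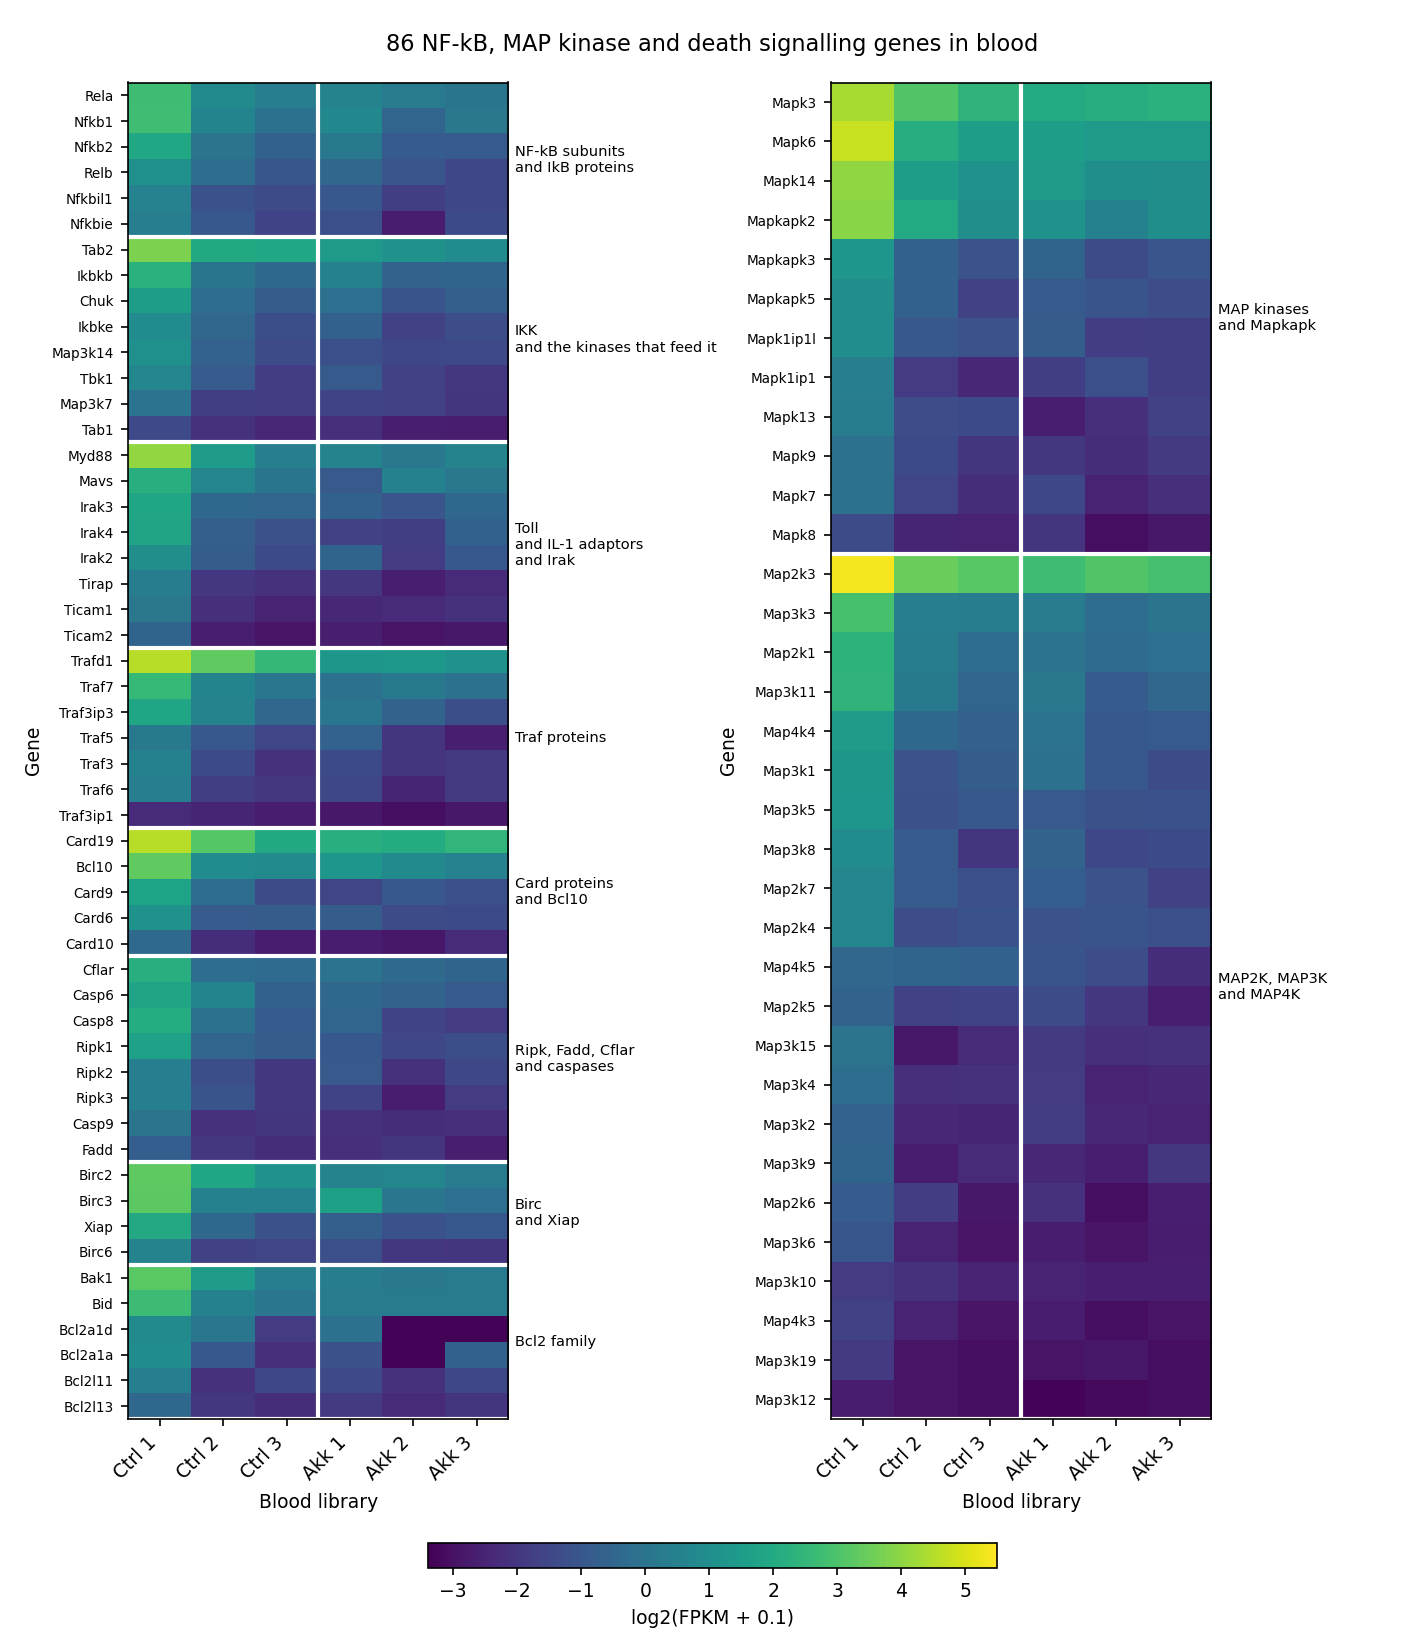
Levels of 86 of the 89 members in the 6 blood libraries as log2(FPKM + 0.1), grouped by role and, within a role, ordered by mean FPKM. The white vertical line separates Ctrl from Akk. The Ctrl 1 column is the brightest in every row, and Map2k3 is the brightest gene in each column.

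Of the 6 NF-kB subunits and IkB proteins, 0 passed the test and 0 had groups without overlap. Rela, the transactivating p65 subunit (gene ID 19697, chr19:5637442-5648134, GRCm38), measured 6.64, 1.69 and 1.23 FPKM in Ctrl and 1.39, 1.11 and 0.93 FPKM in Akk. Akk 1 lay above Ctrl 3, and the other two Akk libraries lay below every control. The log2 fold change was -1.04 ± 0.93 (SE, n = 3 and 3; limma, adjusted p = 0.487), -0.33 without Ctrl 1 and -0.12 after centring. Nfkb1, which encodes the p105 precursor of p50 (gene ID 18033, chr3:135584655-135691969), measured 6.79, 1.44 and 0.86 FPKM in Ctrl and 1.57, 0.61 and 1.02 FPKM in Akk. Here Akk 1 was above both Ctrl 2 and Ctrl 3 and Akk 3 above Ctrl 3. Its log2 fold change was -0.98 ± 0.93 with all libraries and -0.15 without Ctrl 1. Nfkbie, which encodes the inhibitor IkB-epsilon (chr17:45555700-45563169), had the lowest unadjusted p of the role, at 1.22, 0.42 and 0.23 FPKM in Ctrl and 0.33, 0.05 and 0.28 FPKM in Akk. Akk 2 alone was clearly low, and Akk 1 and Akk 3 lay above Ctrl 3. Within a library the ratio of Nfkb1 to Rela was 0.86 ± 0.16 in Ctrl and 0.93 ± 0.33 in Akk (SD, n = 3 each), and that of the non-canonical pair Nfkb2 to Relb was 1.48 ± 0.37 and 1.55 ± 0.28. Both ratios overlapped between the groups.

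Because several of these genes are themselves targets of NF-kB, the sequence before their annotated starts was searched for the kappa-B consensus, the 10-base site that NF-kB dimers bind. RefSeq windows of 250 bases before the start of transcription (GRCm38.p6) were at hand for 72 members, and 7 of them (9.72%) held the consensus on either strand, against 10.6% of the 6438 blood-table genes with a window and 8.23% of all 27025 genes with one. The members' share was thus close to that of other genes, and the 7 were Bcl10, Map3k7, Mapk1ip1l, Mapk7, Nfkb2, Nfkbie and Traf3. The windows of Nfkbie and Traf3 are shown whole because GENCODE places 0 exon bases in them. RefSeq, however, begins the Traf3 gene at base 111166321, inside the window shown and before the match. A 30-base stretch of Nfkb2 is shown because its window held the most matches, 3, of which 2 overlap, and all 30 bases lie in annotated exon, since this start is internal to the gene. Capitals mark the consensus, and each sequence reads 5′ to 3′ on the plus strand, which is the strand of all 3 genes. The match begins 106 bases before the start in Nfkbie, 10 bases before it in Traf3, and 39 and 38 bases before it in the Nfkb2 stretch. A match describes the letters only, and binding was not measured.
Nfkbie chr17:45555450-45555699: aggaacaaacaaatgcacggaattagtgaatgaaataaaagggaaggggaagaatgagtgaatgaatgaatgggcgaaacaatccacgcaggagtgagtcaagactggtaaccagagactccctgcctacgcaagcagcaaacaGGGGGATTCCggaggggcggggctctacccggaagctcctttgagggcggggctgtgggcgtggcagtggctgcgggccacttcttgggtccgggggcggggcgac
Traf3 chr12:111166120-111166369: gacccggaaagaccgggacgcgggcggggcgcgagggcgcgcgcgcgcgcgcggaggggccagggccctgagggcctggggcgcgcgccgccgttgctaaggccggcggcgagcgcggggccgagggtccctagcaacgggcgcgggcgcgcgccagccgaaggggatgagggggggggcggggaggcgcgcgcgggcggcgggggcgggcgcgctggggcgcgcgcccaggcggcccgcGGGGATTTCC
Nfkb2 chr19:46304693-46304722: gtcacGGGAATTCCCCccctcggggggccg

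The expression of these 3 genes, named for their sequences after their values had been seen, did not set them apart. Nfkb2, the p100 precursor, measured 3.71, 0.91 and 0.55 FPKM in Ctrl and 1.04, 0.47 and 0.44 FPKM in Akk, with a centred log2 fold change of -0.03. Traf3, a brake on non-canonical NF-kB, measured 1.34, 0.28 and 0.13 FPKM in Ctrl and 0.28, 0.14 and 0.17 FPKM in Akk, with a centred value of 0.13. In all 3 genes at least 1 Akk library lay above Ctrl 3.

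Among the 8 genes of the IkB kinases and the proteins that feed them, 0 passed the test and 1, Tab2, had groups without overlap (15.4% of the table). Tab2 binds ubiquitin chains and brings the kinase Map3k7 (TAK1) to activated receptors. It measured 13.4, 3.87 and 3.63 FPKM in Ctrl and 2.53, 2.09 and 1.75 FPKM in Akk (chr10:7905648-7956255). Every Akk library was below every control, also after centring, when the Ctrl values lay between 3.14 and 3.54 and the Akk values between 2.67 and 2.97 above the library median on the log2 scale. The log2 fold change was -1.41 ± 0.93 with all libraries and -0.81 ± 0.32 without Ctrl 1, where the unadjusted p was 0.033 and the adjusted p 0.901 (limma), with adjusted p from 0.222 to 0.999 over the alternatives. The groups of the catalytic kinases overlapped: Ikbkb had a log2 fold change of -0.02 without Ctrl 1 and Chuk -0.16, and Map3k7 itself had -0.02. Centred values of the role ran from -0.50 for Tab2 to 0.38 for its relative Tab1, which was low in every library, at 0.27 FPKM or below.

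The 8 Toll, IL-1 receptor and RNA-sensor adaptors and Irak kinases gave 0 calls and 0 genes without overlap. Myd88, the adaptor of most Toll-like receptors, measured 16.6, 2.80 and 1.23 FPKM in Ctrl and 1.39, 1.01 and 1.41 FPKM in Akk (chr9:119335934-119340018). Ctrl 1 was 8.26 times the mean of the other controls, and Akk 1 and Akk 3 were above Ctrl 3. The log2 fold change was -1.56 ± 0.93 (limma, adjusted p = 0.487) and -0.53 without Ctrl 1. This role held the members that stood highest in Ctrl 1, with a median ratio of Ctrl 1 to the mean of the other controls of 8.07 and a maximum of 13.3 in Ticam2, a gene at 0.06 FPKM or below in all other libraries. Mavs, the mitochondrial adaptor of RNA sensors, and Irak4, the first kinase recruited by Myd88, were lowest in Akk 1 or Akk 2 but not in all treated mice: Irak4 measured 0.22, 0.20 and 0.55 FPKM in Akk against 3.41, 0.52 and 0.34 FPKM in Ctrl.

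Of the 7 Traf proteins 0 passed the test, and Trafd1 and Traf3ip1 had groups without overlap, against 15.4% of the table. Trafd1, a zinc finger protein known as a feedback inhibitor of Toll-like receptor and RNA-sensor signalling (gene ID 231712, chr5:121371725-121386570), had the lowest unadjusted p of the 89 members with the FPKM as deposited, after centring and without Ctrl 1. It measured 23.0, 9.82 and 5.62 FPKM in Ctrl and 2.38, 2.42 and 2.10 FPKM in Akk, or 12.8 ± 9.1 and 2.30 ± 0.17 FPKM (SD, n = 3 each). The Akk libraries lay close together, and no value fell between 2.42 and 5.62 FPKM. The log2 fold change was -2.19 ± 0.94 (95% interval -4.03 to -0.36), with an unadjusted p of 0.019 and an adjusted p of 0.487 (limma), which is not a call. Without Ctrl 1 it was -1.65 ± 0.35 (unadjusted p = 0.001, adjusted p = 0.344), and after centring -1.28 ± 0.30 (unadjusted p = 0.001, adjusted p = 0.326). It ranked 85 of the 8003 genes by p with the FPKM as deposited, 18 after centring and 27 without Ctrl 1. Across the 14 alternative settings its log2 fold change stayed between -2.66 and -1.003 and its adjusted p between 0.176 and 0.822. Exon bases shared with another annotated gene made up 8.58% of Trafd1, all other Traf proteins had log2 fold changes of -1.24 or higher, and Traf3ip1, an intraflagellar transport protein despite its symbol, was at 0.10 FPKM or below in every library.

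The 5 Card proteins and Bcl10 gave 0 calls and 0 genes without overlap. Card19, a mitochondrial protein with a caspase recruitment domain, was the highest, at 23.4, 8.83 and 3.89 FPKM in Ctrl and 4.42, 4.15 and 5.40 FPKM in Akk (chr13:49202950-49216068). All 3 Akk libraries lay above Ctrl 3 and below Ctrl 1 and Ctrl 2, and the log2 fold change was -0.996 ± 0.941. Card9, the adaptor of fungal-sensing lectin receptors in myeloid cells, measured 3.27, 0.79 and 0.29 FPKM in Ctrl and 0.24, 0.41 and 0.33 FPKM in Akk. Its partner Bcl10 had a log2 fold change of -0.77 with all libraries and 0.05 without Ctrl 1.

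Of the 13 MAP kinases, Mapkapk kinases and Mapk-interacting proteins, 0 passed the test and 4 had groups without overlap, among them Mapk3, Mapk6 and Mapk13. The share over the table was 15.4%. After centring 1 of the 13, not among those named, was lower without overlap, against 4.44% of the table. Mapk3 (ERK1) measured 20.1, 8.28 and 5.19 FPKM in Ctrl and 4.03, 4.36 and 4.76 FPKM in Akk (chr7:126759626-126765816). Ctrl 3 lay only just above the highest treated mouse, and after centring the groups overlapped. As deposited, its log2 fold change was -1.11 ± 0.94 (limma, adjusted p = 0.487).

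Mapk6 (ERK3), an atypical kinase, measured 26.9, 4.31 and 2.93 FPKM in Ctrl and 2.89, 2.59 and 2.57 FPKM in Akk, so Ctrl 3 and Akk 1 nearly met. Its log2 fold change was -1.36 ± 0.94 with all libraries and -0.40 without Ctrl 1, and after centring its groups overlapped. Mapk13 (p38-delta) measured 1.18, 0.31 and 0.28 FPKM in Ctrl and 0.06, 0.12 and 0.22 FPKM in Akk. The fit gave it a log2 fold change of -1.38 ± 0.86, with the lowest unadjusted p of the role, 0.108. Mapk13 was also the only member among the 284 genes of the hippocampus table, where it measured 0.46, 0.26 and 0.05 FPKM in Ctrl and 0.15, 0.24 and 0.43 FPKM in Akk of the same mice, with overlapping groups. The stress kinases Mapk14 (p38-alpha), Mapk8 (JNK1) and Mapk9 (JNK2) had overlapping groups and log2 fold changes of -1.10, -0.53 and -0.85, and of -0.23, -0.14 and -0.30 without Ctrl 1. Mapk8 was at 0.14 FPKM or below outside Ctrl 1.

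The 22 MAP2K, MAP3K and MAP4K kinases gave 0 calls, and 3 of them, Map3k3, Map2k3 and Map4k5, had groups without overlap (15.4% of the table). After centring 0 of the 22 were lower without overlap and 2 were higher, against 4.44% and 4.01% of the table. Their median log2 fold change was -0.67 with all libraries and 0.25 after centring, above the -0.87 and 0.04 of the table, and many of them were among the lowest members, with a median of 0.14 to 0.33 FPKM in the libraries other than Ctrl 1. The 15 Map3k genes, including Map3k7 and Map3k14, which were counted above with the IkB kinases and not among the 22, had a median of 0.31 after centring. At such levels the log2(FPKM + 0.1) scale understates changes, and the difference from the table was not tested. Map2k3, given above, had a log2 fold change of -1.10 ± 0.95 and narrowly separate groups, Ctrl 3 at 8.93 and Akk 2 at 8.44 FPKM. Map3k3 (MEKK3) measured 7.50, 1.22 and 1.16 FPKM in Ctrl and 1.14, 0.75 and 0.91 FPKM in Akk (chr11:106084587-106156656), so the groups were parted only by the step from 1.14 to 1.16 FPKM. Map4k5, an upstream kinase of the JNK arm, differed from other members in that Ctrl 1 hardly stood out: the Ctrl values were 0.63, 0.60 and 0.54 FPKM and the Akk values 0.37, 0.31 and 0.11 FPKM. Its log2 fold change was -1.005 with all libraries and -0.963 without Ctrl 1.

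Map3k8 and Map3k2 were among the 3 members (3.37%, against 4.01% of the table) whose Akk libraries all lay above the Ctrl libraries after centring. Map3k8 (Tpl2), the kinase held by p105 and freed by Toll-like receptor signals, measured 1.74, 0.46 and 0.14 FPKM in Ctrl and 0.57, 0.26 and 0.28 FPKM in Akk. On the centred log2 scale the Ctrl values were 0.28, 0.32 and -0.42 and the Akk values 0.74, 0.36 and 0.39. The difference was 0.44 after centring (limma, adjusted p = 0.934, from 0.258 to 0.999 over the alternatives) and -0.48 as deposited, so its sign followed the scaling. Map3k2 (MEKK2) measured 0.56, 0.09 and 0.08 FPKM in Ctrl and 0.19, 0.09 and 0.07 FPKM in Akk, values a few hundredths apart outside Ctrl 1 and Akk 1, with 0.49 after centring and -0.42 as deposited.

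The 10 Ripk, Fadd, Cflar and caspase genes gave 0 calls and 2 genes without overlap (15.4% of the table), Ripk1 among them. The role had the lowest median log2 fold change of the 10 roles, -1.17 with all libraries, -0.42 without Ctrl 1 and -0.26 after centring. On the centred scale 6 of its 10 genes were negative, against 45.1% of the table, and its values ran from -0.81 to 0.35. Differences between roles were not tested. Casp8, the initiator caspase of death receptors (gene ID 12370, chr1:58795233-58847503), measured 4.25, 0.86 and 0.47 FPKM in Ctrl and 0.61, 0.23 and 0.18 FPKM in Akk. Akk 1 was above Ctrl 3 and the other treated mice were below all controls. The log2 fold change was -1.73 ± 0.92 (95% interval -3.54 to 0.08, limma, adjusted p = 0.487) and -0.88 ± 0.50 without Ctrl 1. After centring it was -0.81 ± 0.30 with an unadjusted p of 0.015 and an adjusted p of 0.934, and over the alternatives the adjusted p (limma) ranged from 0.222 to 0.999. On the centred scale the groups were only just apart, with Ctrl 3 and Akk 1 both at 0.83. The ratio of Casp8 to Cflar, its catalytically inactive relative that restrains it, was 0.96, 1.09 and 0.65 in Ctrl and 0.68, 0.33 and 0.31 in Akk, so Akk 1 lay just above Ctrl 3.

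Ripk1, the kinase that scaffolds survival signals and can start necroptosis, measured 3.11, 0.61 and 0.48 FPKM in Ctrl and 0.42, 0.25 and 0.32 FPKM in Akk (chr13:34002225-34035170). Every treated mouse was below every control here and on the centred scale, with a log2 fold change of -1.37 ± 0.92 as deposited and -0.46 after centring. The 5 caspases together had a median of -1.22, and -0.31 after centring, with 4 of 5 negative there (45.1% of the table). Cflar was at 0.05 and Fadd, the adaptor that recruits Casp8, at 0.28 on the centred scale.

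Of the 4 inhibitors of apoptosis, 0 passed the test and 1, Birc2, had groups without overlap (15.4% of the table). Birc2 (cIAP1), a ubiquitin ligase that acts on Ripk1 and on the non-canonical kinase Map3k14, measured 9.62, 3.44 and 2.08 FPKM in Ctrl and 1.41, 1.49 and 1.09 FPKM in Akk (chr9:7818226-7837131). The groups were apart in FPKM and after centring, when Ctrl lay at 2.69 to 2.98 and Akk at 1.92 to 2.51. The log2 fold change was -1.57 ± 0.93 with all libraries, -0.97 ± 0.35 without Ctrl 1 (unadjusted p = 0.023, limma adjusted p = 0.860) and -0.66 ± 0.29 after centring (unadjusted p = 0.037, adjusted p = 0.934), and its adjusted p over the alternatives ranged from 0.222 to 0.999. For its paralogue Birc3 (cIAP2), at 9.47, 1.31 and 1.33 FPKM in Ctrl and 3.08, 0.97 and 0.80 FPKM in Akk, Akk 1 was the second highest library and the log2 fold change without Ctrl 1 was 0.03. The ratio of Birc2 to Birc3 was 1.74 ± 0.82 in Ctrl and 1.12 ± 0.58 in Akk (SD, n = 3 each), with overlap. Xiap, the direct caspase inhibitor, had a log2 fold change of -1.07 with all libraries and -0.14 without Ctrl 1.

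Of the 6 Bcl2 family genes, 0 passed the test and 1, Bak1, had groups without overlap (15.4% of the table). Bak1, which forms pores in the mitochondrial outer membrane, measured 9.19, 2.72 and 1.21 FPKM in Ctrl and 1.15, 1.02 and 1.08 FPKM in Akk (chr17:27019812-27028627). The treated mice lay close together and Ctrl 3 just above them, and on the centred scale Ctrl 3 was at 2.03 and Akk 3 at 2.02. Its log2 fold change was -1.46 ± 0.93 and -0.70 without Ctrl 1, and other annotated genes covered 25.5% of its exon bases. Bid, the BH3 protein that Casp8 cleaves to activate Bak1, measured 6.43, 1.33 and 0.97 FPKM in Ctrl and 1.13, 1.11 and 1.10 FPKM in Akk. The ratio of Bak1 to Bid was 1.43, 2.05 and 1.25 in Ctrl and 1.02, 0.92 and 0.98 in Akk, the only 1 of the 5 ratios examined whose groups did not overlap. The ratios were chosen after the values had been seen and were not tested. Bcl2a1d, a pro-survival relative, measured 1.67, 0.96 and 0.18 FPKM in Ctrl and 0.88, 0 and 0 FPKM in Akk, with a log2 fold change of -1.91 ± 0.89 (unadjusted p = 0.032, limma adjusted p = 0.487). It is nearly identical to Bcl2a1a, Bcl2a1b and Bcl2a1c, and Bcl2a1a measured 0.34, 0 and 0.55 FPKM in Akk, so reads could not be assigned to 1 copy with certainty. Bcl2l13, a mitophagy receptor, had all Akk libraries above the Ctrl libraries only after centring, by 0.37. Its FPKM were 0.64, 0.16 and 0.11 in Ctrl and 0.17, 0.10 and 0.14 in Akk.

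**Figure D4:**
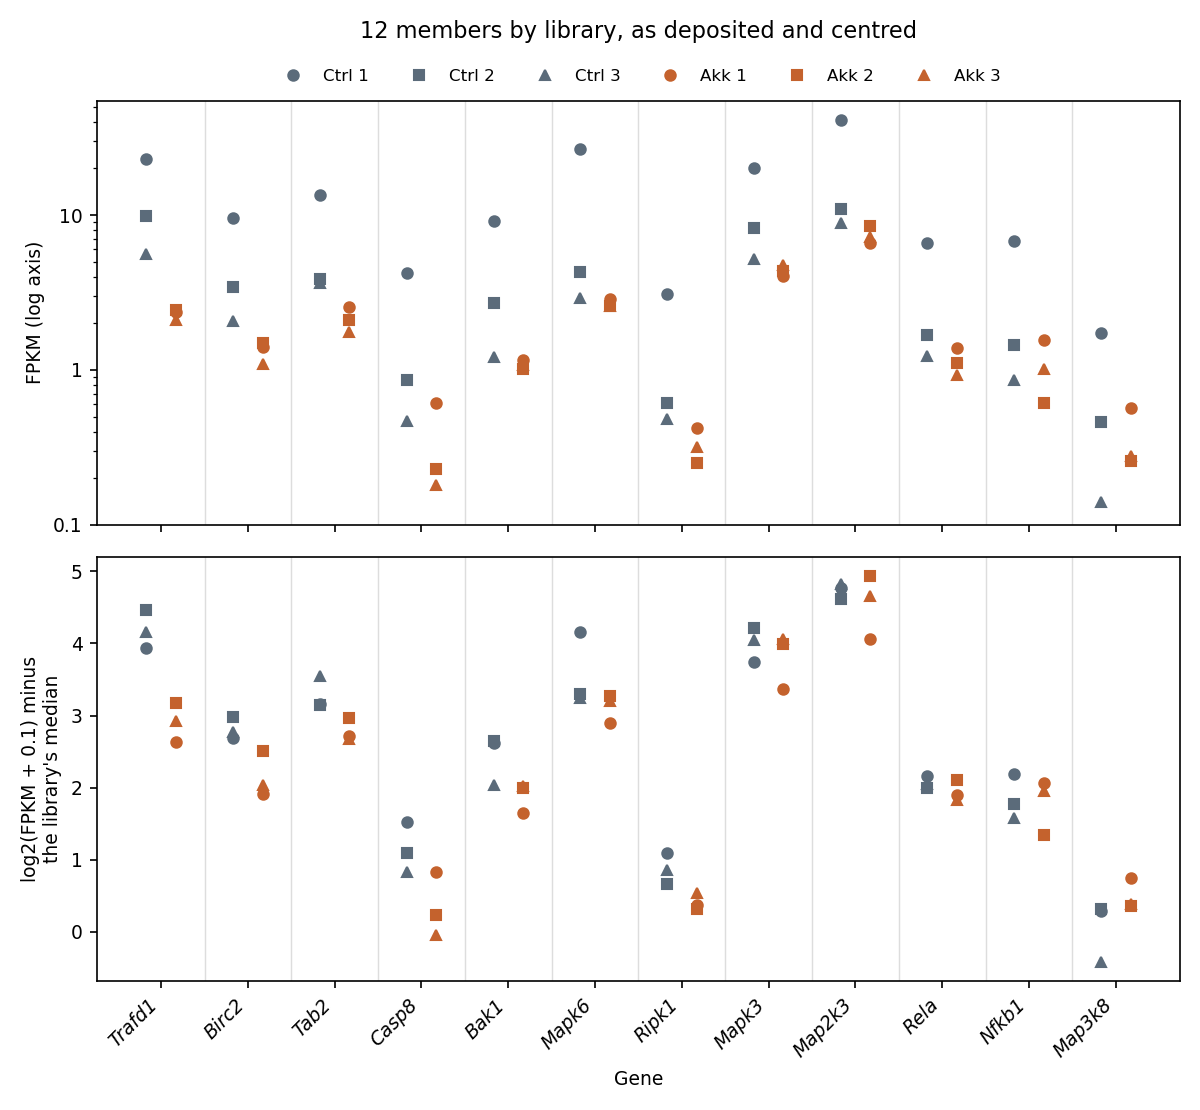
Values of 12 members in the 6 blood libraries, in FPKM on a log axis (top) and as log2(FPKM + 0.1) minus the median of the library (bottom). Slate symbols are Ctrl and orange symbols Akk, and the shape gives the mouse number. For Trafd1 the lowest Ctrl value was 5.62 and the highest Akk value 2.42 FPKM, and the groups remained apart in the lower panel, while Rela, Nfkb1, Mapk3, Mapk6 and Map2k3 overlapped there.

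Genes of the same pathways that the symbol rule does not reach gave 0 calls as well. Of 28 NF-kB receptors and regulators listed, 23 were in the table, with a median log2 fold change of -1.10 (-0.24 without Ctrl 1, -0.19 after centring) and 3 genes without overlap (15.4% of the table). The ubiquitin-conjugating factor Ube2v1 and the Toll inhibitor Tollip were the highest of them, and Ube2v1 measured 28.7, 10.3 and 5.51 FPKM in Ctrl and 5.14, 5.97 and 5.57 FPKM in Akk. The lowest p was that of Ifih1 (MDA5), an interferon-induced RNA sensor upstream of Mavs, at 5.35, 0.78 and 0.32 FPKM in Ctrl and 0.22, 0.11 and 0.24 FPKM in Akk. Its log2 fold change was -2.15 ± 0.92 (unadjusted p = 0.020, limma adjusted p = 0.487) and -1.24 after centring, near the value of Trafd1.

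Of 28 symbols listed for the Ras, Raf and AP-1 arms and the MAP kinase phosphatases, 18 were in the table, with a median of -0.94 (-0.07 without Ctrl 1, -0.02 after centring) and 2 without overlap (15.4% of the table). The listed symbol Ask1, not matched there, is another name of the member Map3k5. Dusp1, the phosphatase that switches off p38 and JNK, measured 147 FPKM in Ctrl 1 but 13.5 and 12.8 FPKM in Ctrl 2 and 3 and 13.1, 11.8 and 14.0 FPKM in Akk. The Akk libraries thus spanned the other controls. The GTPase Rac1 measured 108, 24.3 and 15.6 FPKM in Ctrl and 14.4, 15.5 and 15.0 FPKM in Akk, and Dusp6, the phosphatase of ERK, had the lowest p of the list, 0.101, with a log2 fold change of -1.52. Of 27 death receptors and apoptosis genes, 16 were in the table, with a median of -0.81 (-0.19 without Ctrl 1, 0.11 after centring) and 1 without overlap (15.4% of the table). Mcl1, the short-lived survival factor of myeloid cells, measured 56.0, 8.31 and 5.41 FPKM in Ctrl and 10.2, 6.35 and 6.81 FPKM in Akk, with 0.18 without Ctrl 1. Casp4, the sensor of cytosolic lipopolysaccharide, had -1.23 with all libraries and -0.21 without Ctrl 1. Mlkl, the pore-former of necroptosis, had the lowest p of the list, 0.014, but was listed at 0 in Ctrl 3, Akk 1 and Akk 3 and at 0.47, 0.10 and 0.02 FPKM elsewhere.

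Markers of blood cell types were compared in the same way, with 0 calls. Of the platelet markers 5 of 5 listed were in the table, with Ppbp at 113 FPKM in its lowest library. It also held 6 of 7 neutrophil, 5 of 6 monocyte, 3 of 6 T cell, 2 of 5 B cell and 4 of 4 NK cell markers. Of the red cell markers 0 of 7 were in the table, so they could not be compared. The summed FPKM of the 4 NK cell markers ranged from 12.9 to 56.1 in Ctrl and from 6.09 to 10.3 in Akk, and all 4 had groups without overlap, against 15.4% of the table. The 5 monocyte markers summed to 11.7 to 216 FPKM in Ctrl and 4.95 to 14.5 FPKM in Akk with 1 gene without overlap, and the 3 T cell markers to 3.30 to 8.94 and 1.20 to 3.46 FPKM with 2. Neutrophil markers (261 to 1352 and 140 to 360 FPKM, 2 of 6 without overlap), platelet markers (288 to 2899 and 370 to 460 FPKM, 1 of 5) and B cell markers (2.76 to 12.9 and 2.17 to 6.02 FPKM, 0 of 2) overlapped in their sums. The monocyte and T cell sums overlapped as well, so only the NK sums were apart. On the centred scale the medians were -0.90 for NK, -0.77 for monocyte, -0.48 for neutrophil, -0.29 for T cell, -0.20 for platelet and 0.26 for B cell markers. There, 2 NK, 2 monocyte, 1 neutrophil, 1 platelet, 0 T cell and 0 B cell markers were lower without overlap, against 4.44% of the table. None of these 25 markers was at 0 in any library. The part of these cells in the values of the members was not tested, and fewer cells of a type and less RNA per cell cannot be told apart in bulk blood.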

How the data were processed

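Blood FPKM of 3 Ctrl and 3 Akk mice were analysed. The authors deposited FPKM per gene and library, rounded to 2 decimals, for genes selected as changed. Their methods name HISAT2 or Bowtie2 for mapping and RSEM for quantification, whereas the submitters' processing notes name TopHat2, Cufflinks and GRCm38, and which made the values is unresolved. Read depth is unknown, so no counting error is given.

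Groups were taken from the labels. From the deposited FPKM, log2(FPKM + 0.1) of all 8003 genes was compared with limma 3.58.1 in R 4.3.3 (lmFit, eBayes with trend) without scaling between libraries, with Benjamini-Hochberg adjustment over the table. The script was tested on simulated data with independent noise in each gene. Those data held no shift common to a whole library, so they do not bear on a library such as Ctrl 1. Alternatives tried were a pseudocount of 1 or 0.01, a minimum mean FPKM of 1, median centring, quantile normalization, no trend, a replicate block, each library left out, and centring without Ctrl 1. Gene positions and windows came from RefSeq GRCm38.p6, shared exon bases from GENCODE on either strand (the kit's strand is not given in the sources used here), and near-identical transcripts from blastn 2.17.0, at 95% identity over 50% of the length. Summaries and figures were made in Python 3.11.15 (numpy 2.4.6, pandas 2.3.3, matplotlib 3.10.9).

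The members and all lists were chosen with earlier results of these data known. Genes were named by rule: Rela, Nfkb1 and Casp8, in each role the highest mean FPKM and the lowest unadjusted p, members without overlap at a mean FPKM of at least 1 (up to 3 a role) or after centring (up to 2 a role), members higher in Akk or not highest in Ctrl 1 (there were none), and in each further list the 2 highest and the lowest p. Others were named after their values had been seen. The same replicate number marks different mice in the 2 groups. Some genes are not reported here.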

Additional observations from a re-analysis of the deposited data

How the results depend on the processing

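No member passed both thresholds under any of the 14 alternatives (0 in each). At 3 mice a group and an unknown read depth, with 58 of 89 members below a mean of 1 FPKM, the precision of low genes is limited. The members' median log2 fold change was -0.88 and changed sign with scaling: 0.0367 after median centring, 0.0638 after quantile normalization and 0.0289 when centred without Ctrl 1. These scalings also remove a group difference shared by the selected genes, so medians near 0 follow from them. Leaving out 1 library at a time gave -1.34 to -0.22, the latter without Ctrl 1. The count of members without overlap (14) was 9 among the 31 members with a mean of 1 FPKM or more (20.1%), 7 centred (4.44%), 4 quantile-normalized (3.51%) and 8 centred without Ctrl 1 (9.10%), and 14 to 47 with 1 library left out, 47 without Ctrl 3 (57.8%) and 39 without Akk 1 (41.8%), where the percentages are the shares of all genes tested in that setting. Negative members (89) numbered 31 of 31 at the mean FPKM limit, 43 centred, 30 quantile-normalized, 41 centred without Ctrl 1 and 73 without Ctrl 1. Rela (0.0758), Nfkb1 (0.158), Card19 (0.213), Mapk3 (0.0788), Map2k3 (0.0819), Ube2v1 (0.119), Tollip (0.0471), Dusp1 (0.0871) and Rac1 (0.0250) turned positive under quantile normalization. Centred without Ctrl 1, Nfkb1 (0.105), Dusp1 (0.230) and Casp4 (0.0403) did. The values centred, quantile-normalized and centred without Ctrl 1 were 0.491, 0.375 and 0.439 for Map3k2, 0.437, 0.528 and 0.549 for Map3k8, 0.368, 0.285 and 0.258 for Bcl2l13 and 0.0793, 0.390 and 0.430 for Mcl1. With 1 library left out these 4 genes ranged from -0.748 to 0.189, -1.17 to 0.299, -0.901 to 0.0075 and -1.49 to 0.180, positive without Ctrl 1. The other 383 of 411 values of named genes kept their sign and stayed short of the threshold. The cause of these reversals was not tested. Calls over the table were 23 without Ctrl 3, 4 with a pseudocount of 0.01, 2 centred without Ctrl 1, 1 centred and 1 with the replicate block, and 0 of them were members. Same-numbered libraries, which are different mice, had deviations that correlated at 0.036, -0.011 and -0.096, so the numbers did not pair them. The replicate block left the members' median at -0.88 and 5 members with an unadjusted p under 0.05 against 2, while over the table it was 591 of 8003 genes against 276.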
